A study of Homo sapiens with 6 samples.

Results

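The regions described here are the strongest ATAC-seq signals of A375 melanoma cells that lie away from the gene start the deposited tables name for them. They were chosen by 2 deposited values, a mean signal of at least 300 over the libraries and a distance to that start of more than 10 kb and at most 500 kb. The rule took 9551 regions out of 226920, or 4.21% of all regions and 6.02% of the 158645 regions at that distance. The libraries formed 3 groups of 2: A375 cells given recombinant HMGA1 for 2 h, A375 cells given it for 18 h, and untreated A375 cells (mock). A375 is an established human melanoma line, and no allele or further agent distinguished the groups in the labels. Cells of every group, mock included, were frozen in medium with DMSO, thawed and treated with DNase I before nuclei were prepared. The labels name each pair biological replicates without saying that they were separate cultures, so the p-values reflect how much these libraries differ within a pair, part of which may be technical.

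ATAC-seq uses the Tn5 transposase, which cuts and tags DNA where it is not wrapped tightly in nucleosomes, so that reads pile up at open chromatin. Open regions far from gene starts include enhancers, which bind transcription factors such as AP-1 and TEAD and act on genes over a distance, and insulator sites bound by CTCF. HMGA1 is an architectural chromatin protein that binds the minor groove of A/T-rich DNA through its AT-hooks and is abundant in many tumours. It has also been described outside cells. The question the groups address is what recombinant HMGA1 given to the cells does to chromatin accessibility, and when.

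The signal of a region is a read count that the authors divided by a size factor for each library and averaged over the 6 libraries. No value of a single library was used here, so the depth of each library and the spread within a pair are known only through the deposited standard errors. A region was called where the deposited adjusted p was under 0.05. Every strong distal region had been tested in all 3 comparisons, so none was lost to the authors' limits on low signal, which excluded weaker signals than 56.2 (2 h, mock), 101 (18 h, mock) or 41.7 (18 h, 2 h). Start regions of markers did not show the lineage label clearly. Only MITF, the melanocyte master regulator, had a strong one, with a mean signal of 694 (the higher of 2 start regions). The start region of SOX10 had 63.8, less than those of KDR, KRT5 and DCN below. No region lay at the starts of TYR, TYRP1, DCT, PMEL or MLANA. Among markers of other cells, start regions had a signal of 197 at KDR, 24.2 at CD14, 69.4 at KRT5, 26.9 at KRT14 and 78.2 at DCN, and none lay at those of PECAM1, CDH5, VWF, PTPRC, CD3E, POSTN or PDGFRA. In these bulk libraries, fewer cells with a site open and a site less open in each cell cannot be told apart.

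The letters of most strong distal regions could not be read here, but 532 of them cover whole the 250 bases before a transcript start that RefSeq lists on GRCh38.p14 and that the deposited distances do not count as near. These 600 windows stand before 302 protein-coding and 298 long non-coding RNA starts. Shown are 6 windows from regions that were called in 1 or more comparisons, to set their letters beside their values, and 1 from the strongest such region, which was not called. All run 5′ to 3′ on the strand of the transcript. Capitals mark the AP-1 word TGANTCA, the E-box CACGTG, the SP/KLF word GGGCGG, the NFY word CCAAT and the TEAD word GGAATG on either strand; no word of these contains another.
SMAD3, chr15:67098429-67098678, plus strand: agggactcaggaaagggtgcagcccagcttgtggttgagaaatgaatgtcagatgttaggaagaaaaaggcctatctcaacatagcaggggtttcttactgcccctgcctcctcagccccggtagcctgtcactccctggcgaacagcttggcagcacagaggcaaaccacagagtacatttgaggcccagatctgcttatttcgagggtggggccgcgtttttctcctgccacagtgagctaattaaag
NPLOC4, chr17:81566603-81566852, minus strand: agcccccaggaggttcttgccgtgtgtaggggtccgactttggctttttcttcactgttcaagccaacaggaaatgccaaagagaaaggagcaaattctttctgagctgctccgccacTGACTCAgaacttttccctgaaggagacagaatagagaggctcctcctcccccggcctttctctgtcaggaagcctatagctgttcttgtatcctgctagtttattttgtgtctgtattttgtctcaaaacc
HIP1, chr7:75611817-75612066, minus strand: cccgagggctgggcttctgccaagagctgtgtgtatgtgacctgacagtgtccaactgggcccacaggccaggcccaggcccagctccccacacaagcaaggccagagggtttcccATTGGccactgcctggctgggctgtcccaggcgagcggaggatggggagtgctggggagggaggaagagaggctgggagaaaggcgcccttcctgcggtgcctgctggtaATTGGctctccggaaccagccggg
CCSER2, chr10:84424919-84425168, plus strand: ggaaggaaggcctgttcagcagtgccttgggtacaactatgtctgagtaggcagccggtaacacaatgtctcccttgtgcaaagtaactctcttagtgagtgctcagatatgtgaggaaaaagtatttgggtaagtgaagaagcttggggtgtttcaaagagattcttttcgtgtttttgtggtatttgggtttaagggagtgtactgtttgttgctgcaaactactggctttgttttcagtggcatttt
LOC107985362, chr1:233707517-233707766, minus strand: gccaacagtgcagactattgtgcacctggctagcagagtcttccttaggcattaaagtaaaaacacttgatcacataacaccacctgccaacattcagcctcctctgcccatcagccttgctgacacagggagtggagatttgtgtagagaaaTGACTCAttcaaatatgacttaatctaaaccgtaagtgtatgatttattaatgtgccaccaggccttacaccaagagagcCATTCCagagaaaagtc
LALTOP, chr2:1625420-1625669, minus strand: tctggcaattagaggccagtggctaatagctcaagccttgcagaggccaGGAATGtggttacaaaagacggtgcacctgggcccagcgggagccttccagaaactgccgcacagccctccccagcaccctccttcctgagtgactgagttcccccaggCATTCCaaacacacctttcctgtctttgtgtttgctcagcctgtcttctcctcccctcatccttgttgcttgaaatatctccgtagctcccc
COQ8A, chr1:226940044-226940293, plus strand: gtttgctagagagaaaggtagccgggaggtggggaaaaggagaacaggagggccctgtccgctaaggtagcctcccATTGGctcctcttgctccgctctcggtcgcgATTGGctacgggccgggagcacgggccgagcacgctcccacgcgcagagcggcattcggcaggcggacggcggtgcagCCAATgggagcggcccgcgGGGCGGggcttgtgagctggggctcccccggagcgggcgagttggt

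The SMAD3 window precedes an internal start of SMAD3, a signal transducer of TGF-beta, and holds none of the 5 words. In the authors' deposited table its region had group levels of about 335 at 2 h and 248 at 18 h, against 395 in mock, and it was lower at 18 h than in mock (log2 fold change -0.67, adjusted p 0.00549). The NPLOC4 window, before an internal start of a cofactor of the p97 unfoldase, holds the AP-1 word TGACTCA. Its region stood at about 452 at 2 h and 339 at 18 h, against 320 in mock. It was higher at 2 h than in mock by 0.50 on the log2 scale (adjusted p 0.0134) and lower at 18 h than at 2 h (-0.42, adjusted p 0.0325).

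The HIP1 window, before an internal start of a clathrin adaptor gene, has the NFY word at 2 places. Its region was higher at 18 h than at 2 h (810 against 639; log2 fold change 0.34, adjusted p 0.0155). The CCSER2 window, with 43.2% G+C and none of the words, belongs to a region that was lower at 18 h than at 2 h (502 against 684; -0.45, adjusted p 0.00534). Both long non-coding windows come from regions that were lower at 2 h than in mock. LOC107985362, in a region named for the potassium channel gene KCNK1, has AP-1 and TEAD words and differed by -0.46 (adjusted p 0.00379). LALTOP, in a region named for PXDN, has the TEAD word on each strand and stood at about 434 at 2 h and 420 at 18 h, against 605 in mock (-0.48, adjusted p 0.0037 at 2 h; -0.53, adjusted p 0.00549 at 18 h). The COQ8A window, before the gene of a kinase-like protein of coenzyme Q synthesis that the tables call ADCK3, has 69.2% G+C with SP/KLF and NFY words, and its region differed in no comparison (1699 at 2 h and 1817 at 18 h, against 1799 in mock). When fold changes were centred, the calls at 18 h against mock of SMAD3 (adjusted p 0.0668 on the median and 0.0852 within signal bins) and LALTOP (0.0791 and 0.114) were lost.

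Set beside all 35116 RefSeq windows of the same length, the 600 windows held more G+C, with a median of 65.2% against 58%. AP-1 words were in 16.3% of them, against 6.57% of all windows. SP/KLF words were in 60.5% against 42.6%, NFY words in 40% against 32.0%, TEAD words in 14.0% against 11.9% and E-boxes in 7.17% against 6.34%. A run of at least 8 A or T letters, the kind of DNA that HMGA1 binds, was in 19.2% of the windows and in 35.2% of all. These shares describe windows that differ in base composition and were not tested.

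The strong distal regions had a median mean signal of 443, with quartiles of 358 and 596. The remaining regions at the same distances, all under 300 by the rule, had a median of 34.9, and the 7748 regions of at least 300 within 1 kb of a named start had 533. Strong distal regions made up 47.4% of the 20156 regions of at least 300 anywhere. They held 23.5% of the summed signal of all regions, or 20.8% with the strongest region left out. Of the 9551, 357 reached 1000 and 10 reached 2000. Just inside the signal limit lay regions named for MED24 (300.005) and TLE4 (300.054), and just outside lay NACC1 (299.995) and LAMC1 (299.965). At the distance limits, LASP1 (10003 bases) and MRPL39 (499409 bases) were in, while TLE4 (9992 bases) and SPATA31D1 (500144 bases) were out.

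The strongest regions were few, and none was called. The region named for LTBP1 had a mean signal of 824922, with group levels of about 903802 at 2 h and 791376 at 18 h, against 779588 in mock, and a log2 standard error of 0.22 at 2 h against mock. Further strong regions were named for ARHGAP12 (17502), OR4F16 (4348) and PLS3 (2885), among others. The OR4F16 region overlaps MTATP6P1, and another OR4F16 region (2407) overlaps MTND2P28; both are nuclear copies of mitochondrial genes. A region named for CROCC (2442) overlaps the U1 snRNA gene RNU1-2, a multi-copy gene. None of the 10 was called in a comparison by DESeq2 in the authors' deposited tables. In all, 64 strong distal regions had a standard error over 0.2 at 2 h against mock, against a median of 0.12.

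Distance as deposited did not always mean distance from every known start. RefSeq starts, though not those of every gene, were at hand for the 9114 strong distal regions outside chromosome 8. Of these, 712 (7.81%) covered a RefSeq start, against 1.23% of the other distal regions, and 2195 (24.1%) had a start within 10 kb, against 16.4%. Counting protein-coding starts only, 913 (10.0%) lay within 10 kb, against 6.66% of the other distal regions. The median distance was 56.3 kb as deposited, 49.5 kb to the nearest protein-coding RefSeq start at hand and 25.6 kb to any RefSeq start at hand. The named gene had the nearest protein-coding start at hand for 6352 of the 9114 regions (69.7%). A start of the named gene was at hand for only 7409 regions, so the rest could not match and the share is a lower limit. A gene name below says which start the tables assigned, not which gene a region acts on. Of all 9551, 4518 (47.3%) lay inside a protein-coding gene span, against 50.8% of the other distal regions.

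The regions were spread over chromosomes 1 to 22 and X, but not evenly. Chromosome 1 held 1316 of them, or 13.8%, and they were 7.46% of its distal regions. Chromosome 17 followed with 7.01% of its distal regions and chromosome 5 with 6.97%, while the lowest shares were 3.32% on chromosome 18, 3.33% on chromosome X and 3.77% on chromosome 22. With gaps of up to 10 kb, 2610 of the regions (27.3%) fell into 1124 runs of 2 or more, and 24 runs had at least 5. A run named for SAP30BP held 8 regions in 27.8 kb at chr17:75679687-75707472, and a run named for NANOS3 held 7. In the SAP30BP run 1 region was lower at 18 h than at 2 h, and log2 fold changes ranged between -0.26 and 0.07 at 2 h and between -0.30 and -0.14 at 18 h, each against mock.

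After 2 h of HMGA1, 150 strong distal regions were higher than in mock (1.57%) and 162 were lower (1.70%). Over all 86137 tested regions the shares were 0.856% higher and 0.421% lower. Changes were moderate, with a median fold of 1.43 among the higher and 1.37 among the lower regions, and 42 higher and 13 lower regions passed 1.5-fold. The median log2 fold change of the 9551 was -0.07 (quartiles -0.16 and 0.04), against -0.06 for all tested regions. How many regions count as higher or lower depends on that offset. Centred on the median tested region, 276 were higher and 80 lower, and centred within bins of mean signal 365 were higher and 46 lower, so higher regions made up 48.1%, 77.5% and 88.8% of the calls. Over all tested regions that share was 67% as deposited, 85.6% on the median and 87.8% within bins, so higher calls gained share there too.

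The regions that gained most at 2 h were named for ROR1, an orphan receptor tyrosine kinase, and TLN2, a talin that links integrins to actin. The ROR1 region had a level of about 468 at 2 h and 221 at 18 h, against 235 in mock, and was higher at 2 h by 0.995 on the log2 scale (SE 0.14, adjusted p 5.54e-09). For TLN2 the levels were about 493 at 2 h and 204 at 18 h, against 248 in mock (0.99 ± 0.15 SE, adjusted p 9.07e-08). The region named for RASAL2, a RAS GTPase-activating protein, followed with about 467 at 2 h and 207 at 18 h, against 250.4 in mock (0.90 ± 0.15 SE, adjusted p 4.15e-06). In each of these the 2 h level stood above both others, which lay closer to each other.

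Among the rest of the 10 highest were regions named for RERE, TOX, RLN2, JDP2, IL12A and PAWR, with log2 fold changes between 0.75 and 0.83. JDP2 is a repressor of AP-1, IL12A is a subunit of interleukin 12 and PAWR is a pro-apoptotic protein. PAWR had the smallest adjusted p of these, 4.93e-11, with about 1072 at 2 h and 602 at 18 h, against 637 in mock. At 18 h these 9 regions differed from mock by -0.28 to 0.01, and none of them passed the test there.

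The largest loss at 2 h was at XPNPEP1, the gene of a cytosolic aminopeptidase, whose region had about 265 at 2 h and 396 at 18 h, against 531 in mock (-1.004 ± 0.13 SE, adjusted p 4.93e-11). It was the only strong distal region to reach a 2-fold change at 2 h. The region named for ABCA8, a lipid transporter, had about 197 at 2 h and 368 at 18 h, against 371 in mock (-0.91, adjusted p 5.28e-07). Regions named for CUEDC1 and LIMD1, a LIM-domain scaffold of Hippo signalling, were lower by 0.77 each on the log2 scale. VIT, ST6GALNAC3, FAM108C1 (ABHD17C), ARRDC4 and EFCAB12 were also among the 10 lowest, with log2 fold changes of -0.74, -0.74, -0.70, -0.66 and -0.62. These 18 regions kept their calls under both ways of centring.

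**Figure D1:**
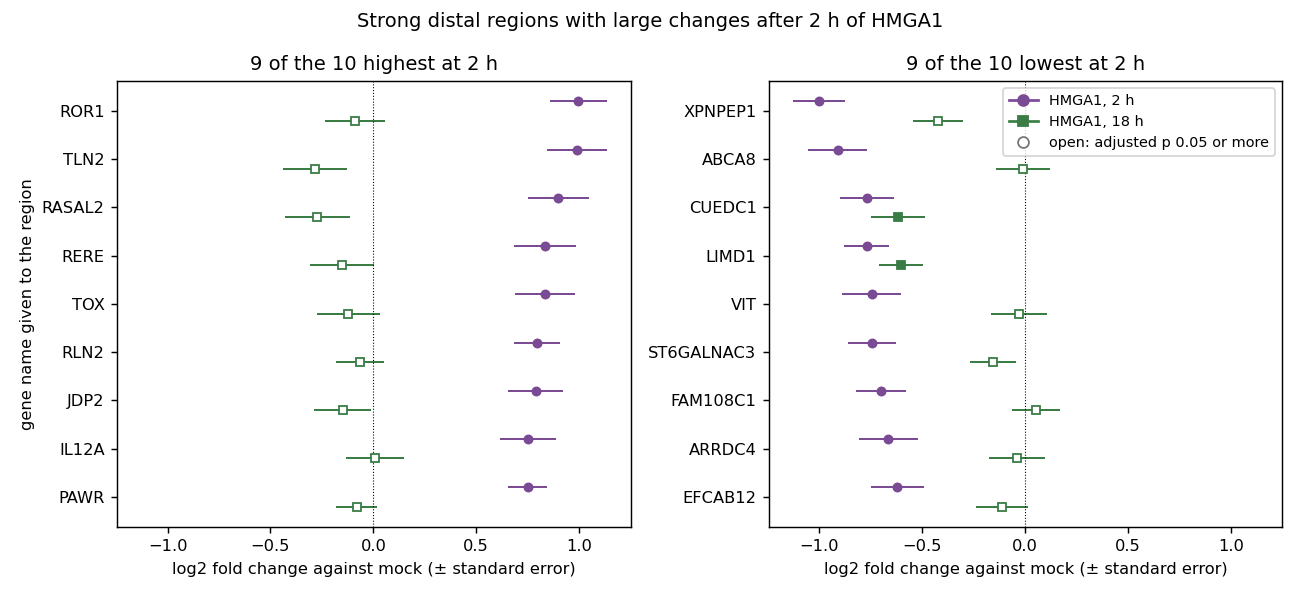
Log2 fold change against mock, with its standard error, of 9 of the 10 strong distal regions with the highest (left) and 9 of the 10 with the lowest (right) values among those called at 2 h; circles are 2 h and squares 18 h of HMGA1, and open symbols mark an adjusted p of 0.05 or more. ROR1 and TLN2 lie at 0.995 and 0.99 at 2 h and at -0.09 and -0.28 at 18 h, while CUEDC1 and LIMD1 are the filled squares at -0.62 and -0.60.

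At 18 h, 37 strong distal regions were lower than in mock (0.387%) and 1 was higher (0.0105%). Over all 55341 tested regions, 0.116% were lower and 0.00542% higher. The median log2 fold change was -0.10, against -0.07 for all tested regions, and 80.7% of the strong distal regions were below 0, against 69.5% of all tested regions. Most of these calls were lost when fold changes were centred: after centring of either kind, 2 regions were lower and 1 was higher. The 3 were named for LIMD1, TGFBI and TTLL11. At an unadjusted p under 0.05 stood 16.2% of the strong distal regions, against 7.89% of all tested regions.

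Regions lower at 18 h were led by the SMAD3 region shown above. ABL1, the gene of a tyrosine kinase, followed with about 253 at 18 h, against 392 in mock (-0.63 ± 0.15 SE, adjusted p 0.0282), and SLC25A48 with 257 against 398 (-0.63, adjusted p 0.00421). CUEDC1 (-0.62, adjusted p 0.00549) and LIMD1 (-0.60, adjusted p 0.001) were lower at both times. The LIMD1 region had about 403 at 2 h and 452 at 18 h, against 686 in mock. RASL12, PXN (paxillin, a focal adhesion adaptor), PITPNC1, SH2D6 and FAM84B (LRATD2) were lower by 0.58 to 0.61 on the log2 scale. Of the 10, LIMD1 alone kept its call when fold changes were centred; the other 9 then had log2 fold changes of -0.60 to -0.51 on the median and -0.58 to -0.49 within bins, with adjusted p from 0.0552 to 0.257. TGFBI, the gene of a matrix protein induced by TGF-beta, was chosen after its values were seen: its region differed by -0.54, and by -0.47 after either centring (adjusted p 0.026 and 0.0299). The single higher region lay 120.7 kb from the deposited start of TTLL11, the gene of a tubulin polyglutamylase, with about 299 at 2 h and 385 at 18 h, against 247 in mock (0.64 ± 0.14 SE, adjusted p 0.0115). RefSeq lists a start of TTLL11 8.7 kb from it.

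Between the times the difference was larger. At 18 h, 788 strong distal regions were lower than at 2 h (8.25%) and 147 were higher (1.54%), against 2.98% lower and 0.498% higher among all 108134 tested regions. The lower regions had a median fold of 1.41, with 241 past 1.5-fold and 9 past 2-fold; the higher ones had 1.35, with 15 past 1.5-fold. Both times were fitted against the same mock libraries, and this contrast equals the difference of the other 2 comparisons, so it tests whether both times differ and is not further evidence for either. The labels give a single mock group with no time, so time on HMGA1 and time in culture cannot be told apart in it. Centring moved it little, to 843 lower and 132 higher on the median and to 939 and 117 within signal bins.

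**Figure D2:**
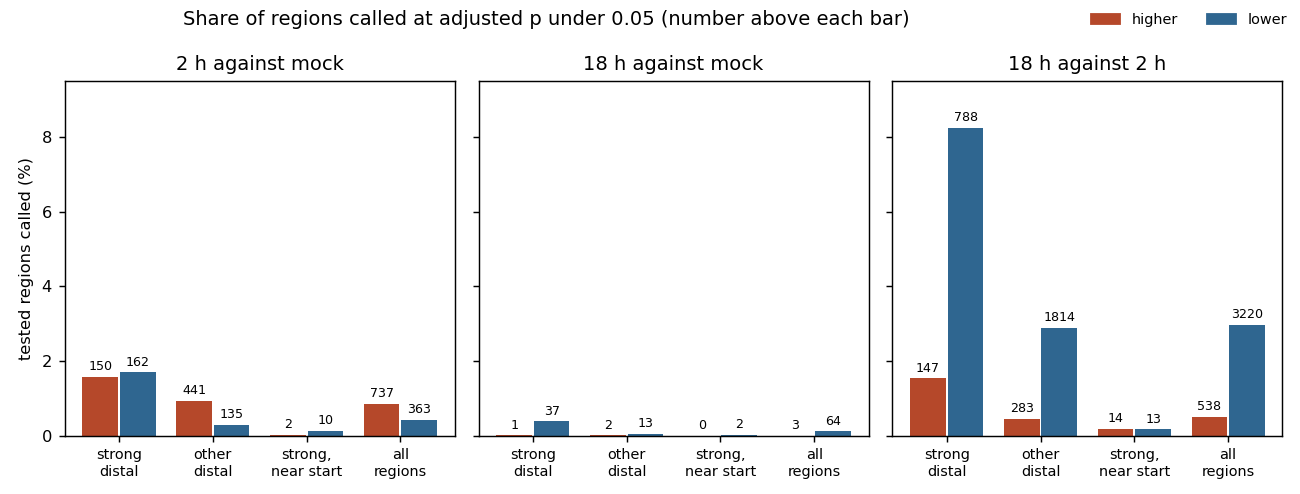
Percent of tested regions called higher (red) or lower (blue) in each of 3 comparisons, for strong distal regions, other distal regions under a mean signal of 300, regions of at least 300 within 1 kb of a named start, and all regions; bars start at 0 and carry their counts. Strong distal regions have the tallest bars in each panel, with 788 lower at 18 h than at 2 h, while strong regions near starts have 13 lower and 14 higher there.

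The lowest value at 18 h against 2 h was at TLN2, with about 204 at 18 h and 493 at 2 h (-1.27 ± 0.15 SE, adjusted p 1.4e-13). The region named for TGFB2, a TGF-beta ligand, had about 237 at 18 h and 541 at 2 h, and 324 in mock (-1.19 ± 0.13 SE, adjusted p 1.51e-15). RASAL2 (-1.17) and ROR1 (-1.08) followed, and CITED2, the gene of a co-regulator of CBP and p300, had -1.14 with a wider standard error of 0.24 (adjusted p 3.68e-04). Regions named for ZNF217, C12orf75, ILDR2, CPA5 and MYO1D lay between -1.06 and -0.99. ZNF217 encodes a zinc-finger factor and MYO1D an unconventional myosin. TLN2, RASAL2 and ROR1 were also among the highest at 2 h against mock, but that comparison shares the 2 h libraries, so their return is not further evidence.

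Higher at 18 h than at 2 h were regions named for ABCA8 (0.90 ± 0.14 SE, adjusted p 1.4e-07) and KMT2C, the gene of a histone H3K4 methyltransferase of enhancers. The KMT2C region had about 686 at 18 h and 388 at 2 h, and 574 in mock (0.82, adjusted p 3.58e-10). FAM108C1, APBB2, PPARG (a nuclear receptor of fat metabolism), VIT, SERPINH1 (the collagen chaperone HSP47), POLR2F, CD58 (an adhesion molecule for T cells) and TBL1XR1 had log2 fold changes between 0.64 and 0.75. At 2 h against mock, a comparison that shares the 2 h libraries, the 10 differed by -0.91 to -0.43, and SERPINH1 (-0.44, adjusted p 0.0787) did not pass there. The calls against mock of APBB2, PPARG and CD58 at 2 h were lost with centring within signal bins, and that of TBL1XR1 with either centring.

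**Figure D3:**
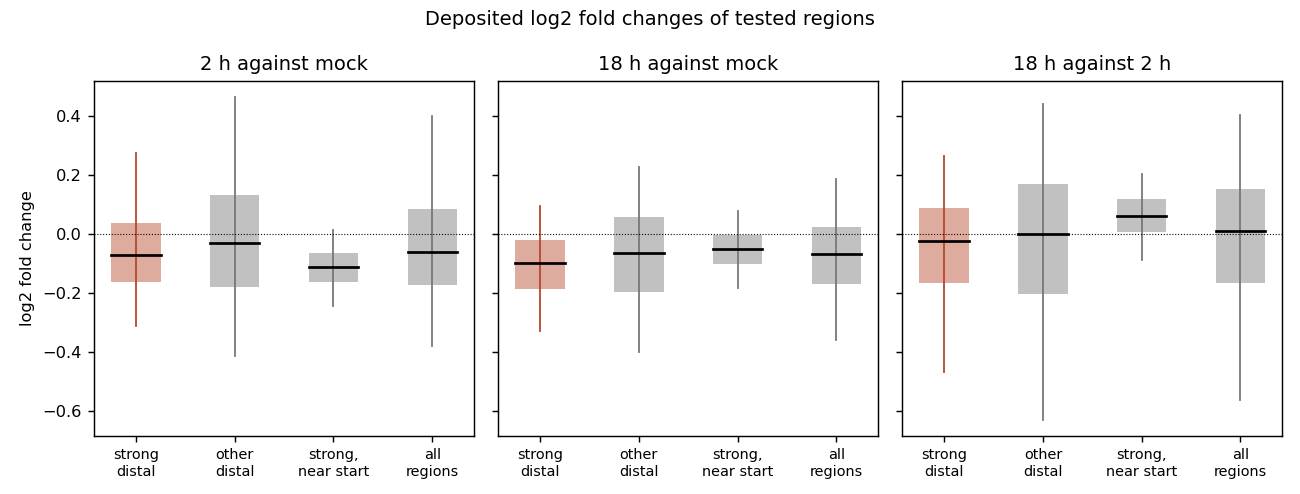
Deposited log2 fold changes of tested regions in each comparison for the same 4 sets; boxes span the quartiles, black lines mark the median and thin lines reach from the 5th to the 95th percentile. At 18 h against 2 h the strong distal regions have a median of -0.03 with quartiles of -0.17 and 0.09, and strong regions near starts a median of 0.06.

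The sets differed in precision. Strong distal regions had a median standard error of 0.12 at 2 h against mock, against 0.24 for the tested regions of the other distal set, of which 0.936% were higher and 0.286% lower at that time. The strong regions within 1 kb of a start were measured as well, with a standard error of 0.11, and 2 of 7748 were higher and 10 lower at 2 h. At 18 h against 2 h they had 14 higher (0.181%) and 13 lower (0.168%), and their median was 0.06 against -0.03 for the strong distal regions. The difference between the sets was not tested, since regions of the same libraries are not replicates.

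Within the strong distal regions, the share lower at 18 h than at 2 h was 8.23% at a signal of 300 to 400, 8.69% at 400 to 600, 8.14% at 600 to 1000 and 4.76% at 1000 or more, while the standard error narrowed across these bands (0.13, 0.12, 0.10 and 0.08). By deposited distance the share was 7.77% at 10 to 50 kb, 8.70% at 50 to 100 kb and 8.63% at 100 to 500 kb. Of the regions that covered a RefSeq start, 12 of 712 were lower (1.69%) and 5 higher, with a median log2 fold change of 0.05. With no RefSeq start within 10 kb, 616 of 6919 were lower (8.90%) and 121 higher, with a median of -0.04. Regions in runs were lower in 10.0% of 2610 cases and single ones in 7.58% of 6941.

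**Figure D4:**
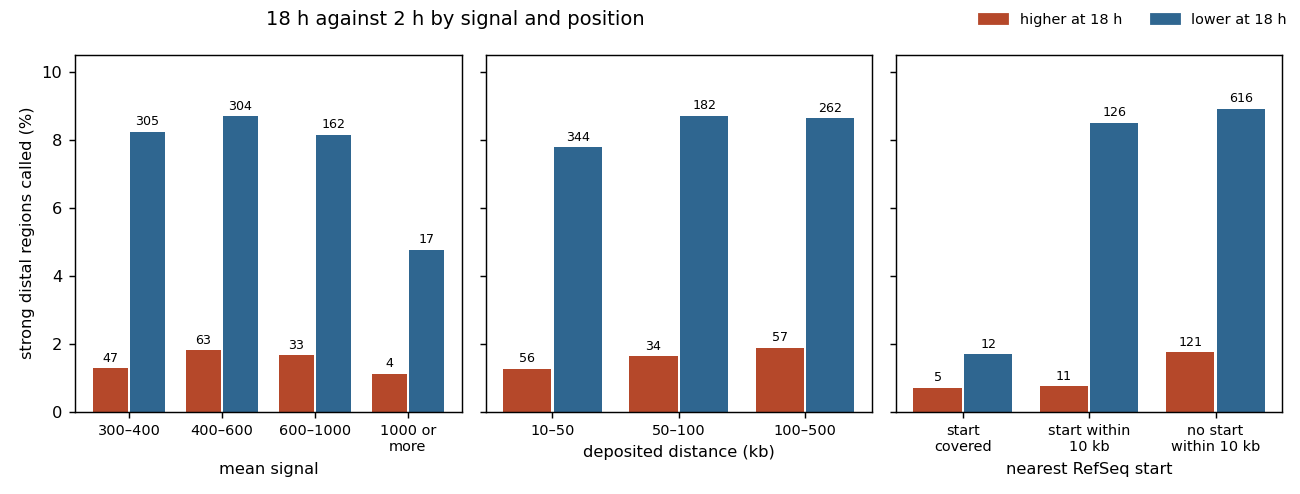
Percent of strong distal regions called higher (red) or lower (blue) at 18 h against 2 h by mean signal, by deposited distance in kb, and by the nearest RefSeq start (chromosome 8 left out of the right panel); counts stand above the bars, which start at 0. The share lower stays between 7.77% and 8.70% over the 3 distance bands and is 1.69% where a RefSeq start is covered.

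Regions were also counted by lists of genes of known roles, each region under the gene the tables name. Over all strong distal regions, the counts to read the lists against are 8.25% lower and 1.54% higher at 18 h than at 2 h. Targets and parts of the YAP/TEAD pathway, the transcriptional output of Hippo signalling, had 52 strong distal regions, of which 18 were lower at 18 h than at 2 h (34.6%) and none higher (1 at an unadjusted p under 0.05). At 2 h against mock 6 of them were higher (11.5%, against 1.57% of all strong distal regions). None was lower (against 1.70%), though 7 were at an unadjusted p under 0.05. Centring raised the 6 to 8 and 11, while higher calls over all strong distal regions rose from 150 to 276 and 365. The median of the 52 regions was 0.04 at 2 h and -0.17 at 18 h, each against mock. Between the times it was -0.22, where all tested regions had 0.01. The 18 were named for TGFB2 (5 of its 10 regions), AMOTL2 (4 of 6), NUAK2 (3 of 4) and 1 each for AMOTL1, CRIM1, FOXF2, LATS2, TEAD3 and WWTR1. AMOTL2, an angiomotin that binds YAP, had a region at about 438 at 18 h and 837 at 2 h, and 566 in mock (-0.94 ± 0.11 SE, adjusted p 2.1e-13). NUAK2, a kinase gene, had about 681 at 18 h and 1092 at 2 h, and 854 in mock (-0.68, adjusted p 2.24e-11). Regions of 1 gene often lie near each other and are not independent.

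TGF-beta genes had 62 regions, 17 of them lower at 18 h than at 2 h (27.4%) and 2 higher; the 5 TGFB2 regions are counted here again. SMAD7, the inhibitory SMAD, had about 414 at 18 h and 664 at 2 h, and 549 in mock (-0.68, adjusted p 4.03e-07), and LTBP2, which belongs to the family of latent TGF-beta binding proteins, had -0.49 (adjusted p 5.26e-04). The 2 higher regions were named for BMP2. Of 69 regions of matrix and adhesion genes, 14 were lower (20.3%) and 1 was higher. Among them 4 of 6 THBS1 regions and 3 of 6 COL5A1 regions were lower, for the genes of thrombospondin 1 and a chain of collagen V. CD44, a hyaluronan receptor, had 8 regions, none of them called by DESeq2, with log2 fold changes of -0.33 to 0.01.

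For genes of the invasive melanoma state, 11 of 72 regions were lower at 18 h than at 2 h (15.3%). Of these, 4 THBS1 regions are also in the matrix count and 3 TGFBI regions in the TGF-beta count; the rest include EGFR (-0.67, adjusted p 1.29e-05) and MMP2 (-0.47, adjusted p 9.43e-05). SOX9 had 10 regions and gave the 1 that was higher. For actin and focal adhesion genes, 10 of 80 were lower (12.5%), each for a different gene. They include 1 of 4 SPTBN1 regions (-0.80), 1 of 2 PXN regions (-0.75) and 1 of 12 TNS3 regions (-0.72). Over all regions of the name, the median between the times was 0.16 for SPTBN1, -0.45 for PXN and 0.01 for TNS3. In the AP-1 and immediate early list 8 of 62 were lower (12.9%), 5 of them named for MYC, beside ATF3 (-0.46, adjusted p 3.91e-04), JUN and KLF2. IER2 had the 1 that was higher (0.33, adjusted p 0.00848). Regions of MAPK feedback and output genes were lower in 9 of 82 cases (11%), near the 8.25% of all strong distal regions, with CCND1, cyclin D1, at about 762 at 18 h and 1104 at 2 h, and 935 in mock (-0.53, adjusted p 6.48e-07) and DUSP5, an ERK phosphatase, at -0.52. BRAF signalling drives this pathway in A375.

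**Figure D5:**
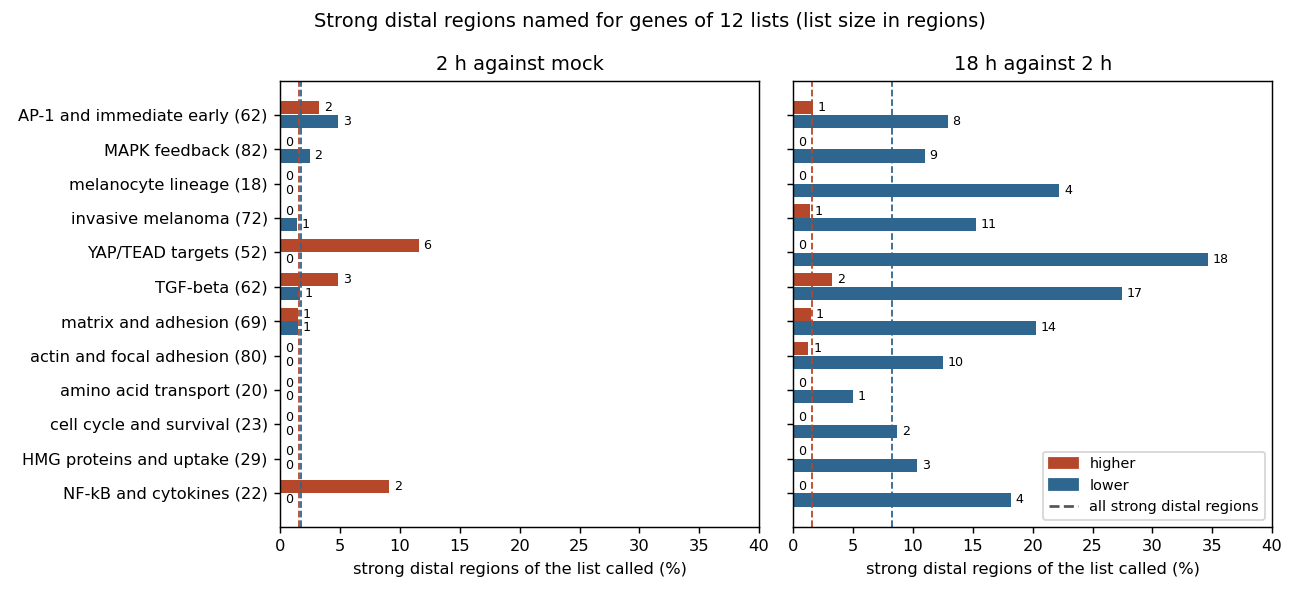
Percent of the strong distal regions of each of 12 gene lists called higher (red) or lower (blue) at 2 h against mock (left) and at 18 h against 2 h (right); counts stand beside the bars, list sizes in regions are in brackets, and dashed lines give the share over all strong distal regions. YAP/TEAD targets have 6 higher at 2 h and 18 lower at 18 h against 2 h, and TGF-beta genes 17 lower.

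The melanocyte lineage list had only 18 regions. Of these 4 were lower at 18 h than at 2 h (22.2%), named for KIT (-0.66, adjusted p 4.11e-04) and TFAP2A (-0.59, adjusted p 0.00189), both active in melanocytes. MITF had 4 regions, none of them called by DESeq2, with log2 fold changes of -0.26 to 0.25. NF-kB and cytokine genes had 22 regions. Of these, 4 were lower between the times (18.2%, against 8.25% of all strong distal regions). At 2 h against mock 2 were higher (9.09%, against 1.57%). LIF, a cytokine of the IL-6 family, had a region at about 564 at 2 h and 330 at 18 h, against 375 in mock (0.59 at 2 h, adjusted p 0.00107). CSF2, the gene of GM-CSF, had 737 at 2 h and 498 at 18 h, against 521 in mock (0.50, adjusted p 7.81e-04). These were 1 of 5 LIF regions and 1 of 4 CSF2 regions, whose medians at 2 h against mock were -0.06 and 0.01.

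The list of HMG proteins and proteins of the cell surface and endocytosis had 29 regions. HMGA2, the close relative of HMGA1, had 9 of them and none was called by DESeq2, with -0.18 to 0.17 at 2 h and -0.30 to 0.06 at 18 h, each against mock. In the list 3 regions were lower at 18 h than at 2 h (10.3%, near the 8.25% of all strong distal regions) and none was higher. They were named for GPC1, a heparan sulfate proteoglycan (-0.61, adjusted p 1.01e-06), SDC4, a syndecan (-0.35, adjusted p 0.0384), and CAV2, caveolin 2 (-0.33, adjusted p 0.011). Against mock at 18 h the GPC1 region had -0.41 with an adjusted p of 0.0489, a call that centring removed. Smaller lists gave 1 lower of 20 for amino acid transport (SLC1A3, -0.43), 2 of 23 for cell cycle and survival (IRS2 and the CCND1 region counted above), 2 of 16 for endothelial markers, both near CDH5, and 1 of 10 for housekeeping genes (YWHAZ, -0.50), counts too small to set apart from the 8.25%. No region of the immune list (7) or of the keratinocyte and fibroblast list (2) was called by DESeq2 in any comparison; at an unadjusted p under 0.05, the immune list had 1 lower at 2 h against mock, 2 lower at 18 h against mock and 1 higher between the times.

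At 2 h against mock the balance within several lists turned with the centring, as it did over all strong distal regions. Those had 150 higher and 162 lower as deposited, 276 and 80 on the median and 365 and 46 within signal bins. AP-1 and immediate early genes had 2 regions higher and 3 lower as deposited, and 4 higher and 1 lower with either centring. Matrix and adhesion genes had 1 higher and 1 lower as deposited, 2 and 0 on the median and 5 and 0 within signal bins. Invasive melanoma genes had 0 higher and 1 lower as deposited, 2 higher and 1 lower on the median and 3 and 0 within bins. At 18 h against 2 h, each of the lists with a call had more lower than higher regions under both, as did all strong distal regions. Those had 843 lower and 132 higher on the median, and 939 and 117 within bins.

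MYC, the growth-promoting transcription factor, had the most strong distal regions of any name, 18, at 66.3 to 441 kb from its start. Their log2 fold changes had a median of 0.05 at 2 h and -0.20 at 18 h, each against mock, and -0.21 between the times. At 2 h 2 of them were higher than in mock, at 18 h 1 was lower, and 5 were lower at 18 h than at 2 h. Over all strong distal regions the shares were 1.57% higher at 2 h, 0.387% lower at 18 h and 8.25% lower between the times. The region 74.6 kb from the start had about 557 at 18 h and 939 at 2 h, and 751 in mock (-0.75 ± 0.10 SE, adjusted p 8.54e-11). Its difference from mock at 18 h, -0.43 with an adjusted p of 0.0271, did not keep its call when centred. The region at 441 kb was higher at 2 h than in mock (856 against 658; 0.38, adjusted p 0.0125) and lower at 18 h than at 2 h (-0.63, adjusted p 6.59e-08).

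NFATC2 and SH3PXD2A had 16 regions each, KCNMA1 14 and ETS1 13. Between the times 1 region was lower for NFATC2 and KCNMA1 each, and none was called by DESeq2 for SH3PXD2A. For ETS1 2 were lower and 1 was higher. Over all strong distal regions 8.25% were lower and 1.54% higher, and these counts are too small to set apart from those shares. ETS1 encodes an ETS transcription factor downstream of MAPK signalling. Its region at chr11:128467581-128468082 had about 800 at 18 h and 1149 at 2 h, and 887 in mock (-0.52 ± 0.09 SE, adjusted p 4.02e-06). Another ETS1-named region, which covers the start of a long non-coding RNA, moved the other way (0.52, adjusted p 0.00328). SH3PXD2A, a scaffold of invadopodia, had 1 region lower at 2 h than in mock (637 against 853; -0.42, adjusted p 0.00341).

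Region names can hide the nearest marker. The 6 strong distal regions named for POLR2F, an RNA polymerase subunit gene, surround SOX10, the neural crest and melanocyte factor; they were singled out after their values were seen. They lie 12.2 to 50.7 kb from the SOX10 start region at chr22:37987116-37987617. The one 18.2 kb from it was lower at 2 h than in mock (459 against 670.3; -0.55 ± 0.11 SE, adjusted p 3.31e-04) and higher at 18 h than at 2 h (0.67, adjusted p 4.93e-07). The one 12.2 kb away was lower at 18 h than in mock (-0.44, adjusted p 0.033). This call was lost with centring on the median (adjusted p 0.305) and within signal bins (0.293). The other 4 were not called. Whole miRNA hairpins lay in 6 strong distal regions, of which the one with MIR3154, named for DNM1, was lower at 2 h than in mock (-0.48 ± 0.12 SE, adjusted p 0.00667).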

How the data were processed

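The measurement was ATAC-seq of 6 A375 libraries. Per the submitters' processing notes the build was hg38, and bcl2fastq 2.17 and DESeq2 were used. Not given in the sources used here are DESeq2's version, the aligner, the peak caller, the counter and any Tn5 shift. The authors deposited 3 comparison tables. Each row gives a region, the mean signal (size-factor-scaled counts, by the authors), the log2 fold change with its standard error, the Wald score of the authors, and a two-sided p-value with its Benjamini-Hochberg adjusted p as deposited. Repeat rows of a region were counted once (226806, 226434 and 226626 regions). The deposited 18 h against 2 h value equals the difference of the others to 1.02e-14. Coordinates are as deposited; whether they count from 0 or 1 is not stated.

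Members and lists were chosen with earlier results of these data known. Group levels were worked out from the mean signal and both fold changes, so they are approximate and carry no SD. Named regions are the 10 highest and 10 lowest called per comparison, the 10 strongest, those of the 6 commonest names, up to 3 per list, and the 4 strongest that cover a RefSeq start. Of these, 6 names are not reported here. Names, starts, miRNAs and windows come from RefSeq tables on GRCh38.p14; 9361 names (98.0%) matched. Alternatives were centring on the median or within 20 signal bins, another threshold, adjustment over every p, other signal minima and RefSeq distances. Python 3.11.15, pandas 2.3.3, numpy 2.4.6 and scipy 1.17.1 were used.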

Additional observations from a re-analysis of the deposited data

Results flagged for a closer look

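The times differed at 788 strong distal regions that were lower, and at 147 that were higher, at 18 h than at 2 h in the authors' deposited DESeq2 contrast of the times; this contrast tests the difference itself, and with no mock group for each time, time on HMGA1 and time in culture cannot be told apart in it. Over all tested regions 3220 were lower and 538 higher.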

How the results depend on the processing

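No paired analysis was possible because the deposited tables used here hold no value of a single library; for the same reason no library could be left out, and the replicate block and leave-one-out fits were not run. Regions higher at 2 h against mock numbered 150 as reported, 276 centred on the median tested region, 365 centred within signal bins, 89 at an adjusted p under 0.01, 273 with a mean signal of at least 200 and 55 with at least 500. Lower ones numbered 162, and 80, 46, 57, 96 (adjusted over every region with a p) and 68 (signal of at least 500). The median log2 fold change at 2 h turned to 0.0242 within signal bins, against -0.07 as deposited. At 18 h against mock the single higher region was lost (0) at an adjusted p under 0.01, at a signal of at least 500 and with RefSeq distances, which put it within 10 kb of a start; the 37 lower became 2 under either centring, 15, 18 (every p) and 19 (signal of at least 500). At 18 h against 2 h the 147 higher became 68 at an adjusted p under 0.01, 233 with a signal of at least 200 and 57 with at least 500, and the 788 lower became 508, 1243 and 302. Signal minima change the set, to 16747 or 3655 regions, and RefSeq distances to 8340, of which 6915 are shared. Of the 288 results of named regions, 14 calls were lost with centring on the median, 17 within bins, 14 at the stricter threshold and 7 with adjustment over every p. Calls were gained by 7 with centring on the median and 10 within bins. Why centring moves these counts was not tested. The depth of single libraries is unknown, and a missed threshold with 2 libraries a group does not show that a region did not change.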
